A study of Canis lupus familiaris with 4 samples.

Results

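ADIPOQ, LEP, PPARG and CD36 are the genes of adiponectin, leptin, a lipid-sensing nuclear receptor and a fatty acid receptor, and they were taken here as the adipocyte and lipid genes of a canine mammary tumour series. The members were the non-control probes annotated to their dog RefSeq mRNAs (NM_001006644, NM_001003070, NM_001024632 and NM_001177734). They are 4 of the 1045 genes on the array that could be named, and had 7 of 43603 probes: 2 for ADIPOQ, 2 for LEP, 2 for PPARG and 1 for CD36. All 7 were well above background in both grades on all 4 arrays, so none was lost to the filter on dim probes. Total RNA labelled as tumours of the 3rd grade, the most malignant, was set against RNA labelled as tumours of the 1st grade, called less malignant, on 4 two-colour Agilent arrays that each held both grades. On replicates 1 and 2 of the first orientation grade 3 was in the dye Cy5 and grade 1 in Cy3, and replicates 1 and 2 of the second had the reverse. The labels give no strain, age, sex or number of dogs, and their protocols describe cancer cell lines co-cultured with monocytes and then separated from macrophages by flow sorting, so whether the RNA came from tissue or from culture is not settled. The labels call the arrays biological replicates without saying which share an RNA extract, and all 4 lay on 1 slide. The p-values therefore rest on a spread among arrays that may be no more than technical.

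Adiponectin and leptin are hormones that fat cells secrete. Adiponectin acts on liver and muscle to favour fatty acid oxidation and insulin sensitivity, and leptin reports fat stores to the hypothalamus. PPARG, a nuclear receptor for fatty acids and their derivatives, drives the differentiation of fat cells and switches on ADIPOQ and CD36 among its targets. CD36 takes up long-chain fatty acids and oxidised lipoproteins, and it is made by macrophages, platelets and capillary endothelium as well as by fat cells. The mammary gland is embedded in fat, so bulk RNA of a mammary tumour can hold RNA of fat cells. In bulk RNA, fewer cells of a type and less RNA per cell cannot be told apart.

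ADIPOQ was the member with the largest difference between the grades, lower in grade 3 on every array. Relative to the other probes LEP and PPARG were lower by much smaller amounts, a direction that turned with scaling to the spike-in controls, and CD36 did not pass the test. Values below are log2 ratios of grade 3 over grade 1, or log2 intensities called levels, after background correction and normalization within each array, so they are relative to the other probes of the same array. Each fold change has its SE from limma over 4 arrays, with p-values adjusted by Benjamini-Hochberg over 35412 tested probes, and a probe was called at an adjusted p under 0.05. Levels of different probes are not compared, because probes differ in how strongly they bind.

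The brighter ADIPOQ probe (A_11_P0000020131) had log2 ratios of -1.55 and -1.57 on replicates 1 and 2 with grade 3 in Cy5, and of -1.44 and -1.12 on replicates 1 and 2 with grade 1 in Cy5. All 4 arrays were on the same side, and the last of them showed the smallest difference. Its level was 10.53, 10.54, 10.45 and 10.35 in grade 1 and 8.98, 8.97, 9.0 and 9.23 in grade 3, in the same order of arrays. The grades did not overlap. The mean level was 10.47 ± 0.09 (SD, n = 4) in grade 1 and 9.05 ± 0.12 in grade 3. ADIPOQ was therefore 2.68-fold lower in grade 3 (log2 fold change -1.42 ± 0.06 SE, 95% interval -1.55 to -1.29, limma adjusted p = 4.91e-08). The separation was visible in the uncorrected spot signals, which ran from 545 to 706 units for grade 3 and from 1022 to 1298.5 units for grade 1, whatever the dye, on local backgrounds of 28 to 47 units.

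The dimmer ADIPOQ probe (A_11_P118426) gave the same picture. Its log2 ratios were -1.28 and -1.34 with grade 3 in Cy5 and -1.36 and -1.08 with grade 1 in Cy5, and it was 2.40-fold lower in grade 3 (log2 fold change -1.27 ± 0.06, limma adjusted p = 7.92e-08). Its levels of 9.93 ± 0.05 in grade 1 and 8.67 ± 0.10 in grade 3 did not overlap either. On both probes replicate 2 with grade 1 in Cy5 had the smallest difference. The difference between the fold changes of the 2 probes was -0.16 ± 0.05 on the log2 scale, and its limma adjusted p of 0.0515, over all 506 pairs of probes that share an accession, missed the threshold, which 34.2% of those pairs passed. ADIPOQ was called lower under every alternative of processing and without any single array, with fold changes from 1.69 (scaling to the spike-in controls) to 2.97 (processed signals of the scanner software). With spike-in scaling the SE was 0.10 for every gene shown, so a call there does not measure the gene's own spread.

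**Figure D1:**
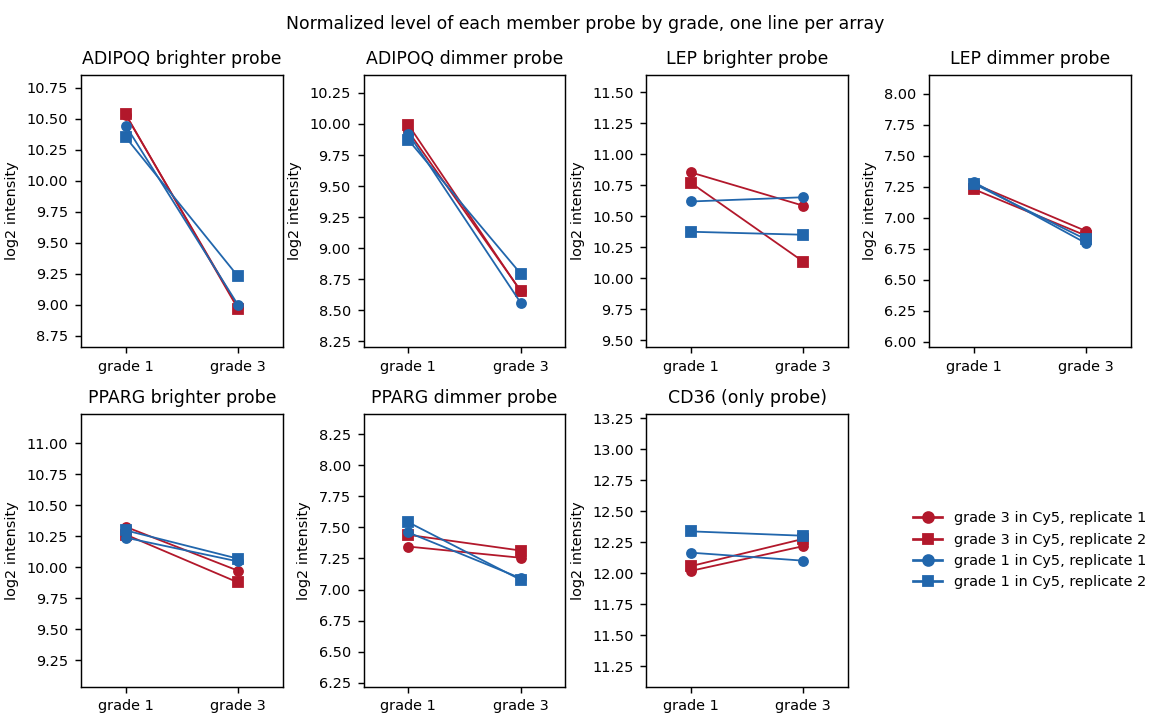
Level (log2 intensity after normalization, vertical axis) of each of the 7 probes in grade 1 and grade 3, with 1 line per array, red for arrays with grade 3 in Cy5 and blue for arrays with grade 1 in Cy5, and circles for replicate 1 and squares for replicate 2. Every panel spans the same range of log2 units around its own mean. Both ADIPOQ probes drop by over 1 unit on all 4 arrays, while the lines of the brighter LEP probe, the dimmer PPARG probe and CD36 differ in slope between the dye orientations.

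LEP was measured by 2 probes that both were called lower in grade 3 but behaved differently across the arrays. The brighter probe (A_11_P0000019794) had log2 ratios of -0.27 and -0.63 on replicates 1 and 2 with grade 3 in Cy5, and of 0.03 and -0.02 on replicates 1 and 2 with grade 1 in Cy5. The difference thus came from the arrays of 1 dye orientation, with means of -0.45 in that orientation and 0.005 in the other. Its level was 10.85, 10.77, 10.62 and 10.37 in grade 1 and 10.58, 10.13, 10.65 and 10.35 in grade 3, so the grades overlapped. Its uncorrected signals were higher in grade 3 on every array, with 1315 to 2141 units against 1247.5 to 1446 units in grade 1. The grade 3 channel also had the higher median signal over all probes on every array. The lower value of this probe in grade 3 thus appeared only after correction and normalization. The fitted difference was 1.17-fold lower in grade 3 (log2 fold change -0.22 ± 0.06, 95% interval -0.36 to -0.08, limma adjusted p = 0.0112). The dye term of the same fit, which measures how far Cy5 exceeded Cy3 regardless of grade, was -0.23 ± 0.06 on the log2 scale and was called (limma adjusted p = 0.0337), as it was for 19.9% of all probes. That call on the dye was lost under 8 of 12 alternatives, among them leaving out any array but replicate 1 with grade 3 in Cy5 (log2 dye term -0.14 without replicate 2 with grade 3 in Cy5).

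The brighter LEP probe was no longer called when replicate 2 with grade 3 in Cy5 was dropped (log2 fold change -0.13, limma adjusted p = 0.0515) when the dye term was omitted (adjusted p = 0.157), or with marked local backgrounds as measured (-0.17, adjusted p = 0.0971). Relative to the array's probes it also depended on the normalization: with median centring in place of loess the log2 fold change was 3.6e-05, and scaling to the spike-in controls turned it to 0.44, where the median of all probes was 0.67.

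The dimmer LEP probe (A_11_P051096) lay in 5 spots on each array and gave the steadier estimate. Its log2 ratios were -0.38 and -0.37 with grade 3 in Cy5 and -0.49 and -0.45 with grade 1 in Cy5, a range over the 4 arrays narrower than that of any other member. Its level was 7.28, 7.23, 7.29 and 7.27 in grade 1 and 6.89, 6.86, 6.80 and 6.83 in grade 3, and the grades did not overlap. By this probe LEP was 1.34-fold lower in grade 3 (log2 fold change -0.42 ± 0.05, limma adjusted p = 3.11e-05), although with spike-in scaling it had a log2 fold change of 0.24. Within an array its spots varied by an SD of 0.04 to 0.17 in log2 ratio, and 1 of 20 spots, marked as an outlier by the scanner software on replicate 1 with grade 1 in Cy5, was left out. Its uncorrected signals were only 85 to 221 units on local backgrounds of 23 to 52.5 units, so the size of its change rested on the background correction. With marked local backgrounds as measured it had a log2 fold change of -0.22 and was not called (limma adjusted p = 0.139), and with the processed signals it was 1.75-fold lower.

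The fold changes of the 2 LEP probes differed by 0.20 ± 0.07 on the log2 scale, which did not pass the test (limma adjusted p = 0.0701). Their dye terms differed by -0.27 ± 0.07 and this did pass (limma adjusted p = 0.0396), as for 23.9% of pairs. With the mean of both probes standing for the gene, LEP was 1.25-fold lower (log2 fold change -0.32, limma adjusted p = 2.23e-05, adjusted over named genes).

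PPARG fell slightly by both of its probes. The brighter probe (A_11_P051166) had log2 ratios of -0.35 and -0.39 with grade 3 in Cy5 and -0.19 and -0.23 with grade 1 in Cy5, below 0 on all 4 arrays. Its level was 10.33, 10.26, 10.24 and 10.30 in grade 1 and 9.97, 9.88, 10.05 and 10.07 in grade 3. The grades did not overlap. PPARG was 1.22-fold lower in grade 3 (log2 fold change -0.29 ± 0.05, 95% interval -0.39 to -0.19, limma adjusted p = 0.00041), relative to the array's probes, while with spike-in scaling it had 0.38 and with median centring -0.08 (adjusted p = 0.174). Uncorrected signals of the brighter probe were higher in grade 3 on every array, with 1077 to 1385 units against 874 to 1193.5 units in grade 1. Its lower value in grade 3 thus appeared only after correction and normalization.

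The dimmer PPARG probe (A_11_P0000020245) had log2 ratios of -0.09 and -0.13 with grade 3 in Cy5 and -0.37 and -0.46 with grade 1 in Cy5. It was 1.20-fold lower in grade 3 (log2 fold change -0.26 ± 0.05, limma adjusted p = 0.000907; 0.41 with spike-in scaling). The grades did not overlap, with levels of 7.45 ± 0.08 in grade 1 and 7.19 ± 0.12 in grade 3. Its own dye term was 0.15 ± 0.05 on the log2 scale (limma adjusted p = 0.0487), a call lost under 11 of 12 alternatives, leaving out any single array included. The 2 PPARG probes thus had opposite patterns across the dyes: the brighter had the larger difference with grade 3 in Cy5 and the dimmer with grade 1 in Cy5. Their dye terms differed by -0.23 ± 0.05 on the log2 scale (limma adjusted p = 0.0228), while their fold changes differed by -0.03 ± 0.05 (limma adjusted p = 0.736). Uncorrected signals of the dimmer probe were 111 to 171 units on backgrounds of 28 to 42 units, and its call was lost with marked local backgrounds as measured (adjusted p = 0.198). With processed signals its log2 fold change was -0.50.

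CD36 was not called. Its probe (A_11_P072951) had log2 ratios of 0.20 and 0.22 with grade 3 in Cy5 and of -0.06 and -0.04 with grade 1 in Cy5, so the 2 orientations lay on opposite sides of 0. Its level was 12.02, 12.06, 12.17 and 12.34 in grade 1 and 12.22, 12.28, 12.10 and 12.30 in grade 3. The grades overlapped. The log2 fold change was 0.08 ± 0.05 (95% interval -0.02 to 0.18, limma adjusted p = 0.161), so at this precision a rise of up to 1.14-fold was within the interval. The value was -0.01 with marked local backgrounds as measured. CD36 was called higher with median centring (0.32) and with spike-in scaling (0.75), where all genes shown had the same SE.

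**Figure D2:**
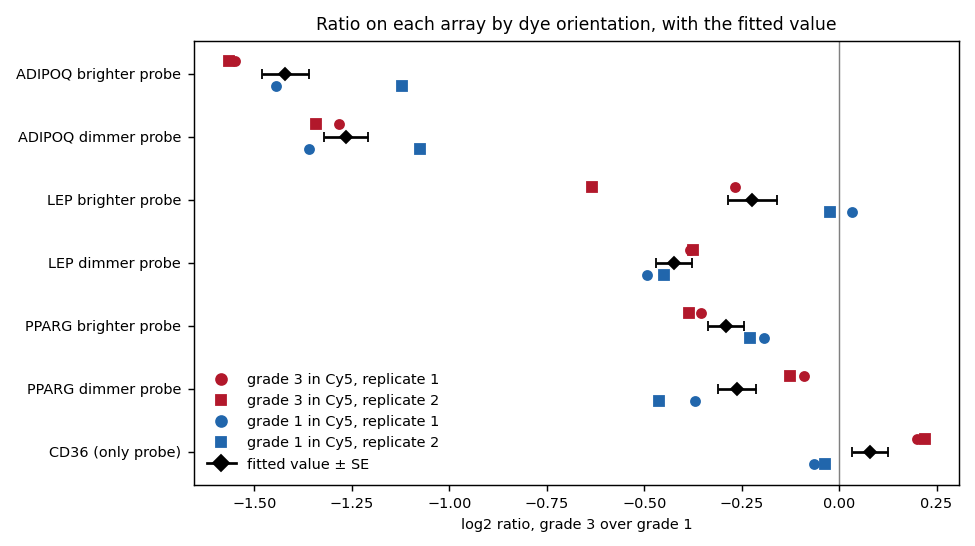
Log2 ratio of grade 3 over grade 1 (horizontal axis) for each of the 7 probes, with red points for arrays with grade 3 in Cy5, blue points for arrays with grade 1 in Cy5, circles for replicate 1, squares for replicate 2, and black diamonds for the fitted value ± SE over 4 arrays. Replicates of an orientation lie close together for most probes, while for the brighter LEP probe the blue points lie near 0 and the red ones below it, and for CD36 the blue and red points lie on opposite sides of 0.

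Of the 7 member probes 6 were called, all of them lower in grade 3. Over all tested probes 61.7% were called, 30.5% lower and 31.1% higher, and of 925 named genes 70.2% were called, 46.1% lower and 24.1% higher, so a called small decrease was common on these arrays. Over all probes, fold changes had a median size of 0.19 on the log2 scale. LEP by its brighter probe and PPARG, at sizes of 0.22 and 0.29, lay close to that median. ADIPOQ lay far from it: only 210 probes, or 0.593% of those tested, had a log2 fold change as low or lower, and among named genes it was at place 22 of 925 from the lowest. PPARG was at place 281 and LEP at place 331. For 5 of the 7 probes the levels of the grades did not overlap, against 44.3% of all tested probes. The 2 orientations had means of opposite sign for the brighter LEP probe and for CD36, against 27.5% of all probes and 6.95% of called ones.

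**Figure D3:**
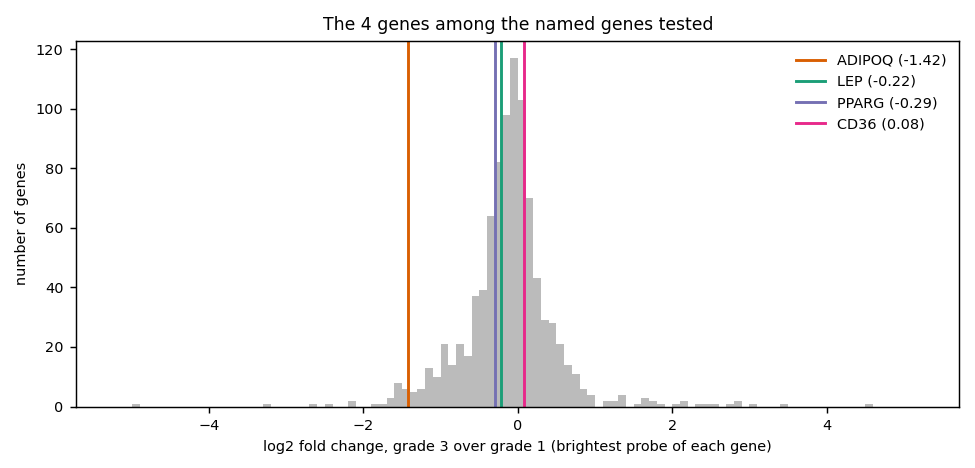
Number of named genes (vertical axis) by log2 fold change of grade 3 over grade 1 (horizontal axis, brightest probe of each gene), with vertical lines at ADIPOQ (-1.42), PPARG (-0.29), LEP (-0.22) and CD36 (0.08). ADIPOQ stands in the lower tail of the 925 genes and the other 3 stand in the body of the distribution.

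The named genes whose 4 ratios lay nearest to those of each member, by Euclidean distance over the 4 arrays, were different for each. Nearest to ADIPOQ were the lymphotoxin gene LTB (distance 0.24, log2 fold change -1.40), the interferon-induced gene OAS2 (0.26, -1.43) and the Fc receptor gene FCGR1A (0.26, -1.37). Nearest to PPARG were FUCA1, a lysosomal fucosidase gene (0.07, -0.28), RAB2A (0.08, -0.28) and OSTC (0.08, -0.32). Nearest to the brighter LEP probe were the copper chaperone gene ATOX1 (0.14, -0.23), XYLT1 (0.17, -0.26) and DAG1, encoding dystroglycan (0.17, -0.31). Nearest to CD36 were the adrenergic receptor gene ADRA1B (0.11, 0.06), TCF4 (0.13, 0.02) and ZP2 (0.16, 0.04). These distances are a description over 4 arrays, with no test.

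The wider set of adipocyte and lipid genes was mostly out of reach, because only 3.78% of probes could be named. Of 151 listed genes 25 were measured, the 4 members included, with 3 called higher, 12 lower and 10 not called. SLC2A4, among the 3 called higher, passed the filter only through grade 3. With both grades required well above background on all arrays, 2 were called higher. Without the 4 members, 3 of 21 were called higher and 9 lower (46.1% of all named genes were called lower), and the median log2 fold change was -0.03, against -0.09 over all named genes. The fat cell genes PLIN1, FABP4, CIDEC, LPL, LIPE and CFD and the genes of fatty acid synthesis were not analysed here. The adiponectin receptors were not analysed here either, and LEPR, the leptin receptor gene, had a probe that was not well above background on all arrays of either grade.

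The other measured genes of the list of adipocyte hormones and markers had called changes of a size near that of the brighter LEP probe. Being on that list does not show that the RNA measured here came from fat cells. UCP1, the uncoupling protein of brown fat, had log2 ratios between -0.37 and -0.27 on the 4 arrays and was 1.25-fold lower (log2 fold change -0.32, limma adjusted p = 0.000259; -0.16 and called with median centring). ADRB3, the adrenergic receptor through which noradrenaline starts fat breakdown, was 1.19-fold lower (-0.25, adjusted p = 0.00109; -0.01 and not called with median centring, and not called without a dye term), mostly on the arrays with grade 3 in Cy5 (means of -0.44 and -0.06 in the 2 orientations). SLC2A4, the insulin-responsive glucose transporter, was 1.17-fold higher (0.23, adjusted p = 0.0171). It was well above background on 3 of 4 arrays in grade 1, so it passed the filter only through grade 3, where it was higher. It was not called without replicate 1 of either orientation (0.13 without that with grade 3 in Cy5, 0.18 without that with grade 1 in Cy5) or without a dye term. The size of the SLC2A4 difference varied with the processing, from 0.07 and not called with median centring to 0.78 with processed signals and 0.80 from the deposited value table, both called. Spike-in scaling turned UCP1 and ADRB3 to 0.35 and 0.42, so both directions hold only relative to the array's probes.

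Among receptors and signalling genes, SOCS3, a feedback inhibitor of leptin and cytokine signalling, was 1.38-fold lower (log2 fold change -0.46, limma adjusted p = 5.87e-05) and ADRB1 1.16-fold lower (-0.22, adjusted p = 0.00728), though 0.20 and 0.45 with spike-in scaling. ADRB1 was not called without replicate 1 with grade 1 in Cy5 (-0.19, adjusted p = 0.052). Nuclear receptors of the PPAR family went different ways. PPARA, the family member that drives fatty acid oxidation, was 1.64-fold lower (-0.71, adjusted p = 1.25e-06), with ratios between -0.93 and -0.50, a larger decrease than that of PPARG, though the difference between these genes was not tested and PPARA had -0.04 with spike-in scaling. PPARD was 1.14-fold higher (0.19, adjusted p = 0.00683), with means of 0.03 and 0.34 in the 2 orientations, and had 0.29 with median centring. PPARD was not called without a dye term, nor without replicate 2 with grade 1 in Cy5 (0.17, its adjusted p being 0.0591). SREBF1, a regulator of lipid synthesis, had 0.14 (adjusted p = 0.133) by its brightest probe and was called at 0.32 by the mean of its probes and at 0.36 with median centring. Single arrays moved it from 0.01 (without replicate 2 with grade 1 in Cy5) to 0.26 and called (without replicate 1 with grade 1 in Cy5).

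Genes that handle fatty acids and lipids inside cells also moved both ways. DBI, which binds fatty acyl-CoA and is made by most cells, was 1.54-fold higher (log2 fold change 0.63, limma adjusted p = 3.64e-06), above 0 on all 4 arrays. CES1, a carboxylesterase that cleaves lipid esters, had the largest decrease of these measured genes after ADIPOQ, 2.19-fold (-1.13, adjusted p = 2.87e-07), with ratios between -1.32 and -1.0. LIPF, a gastric lipase, had -0.03 (adjusted p = 0.672), with -0.26 and not called by processed signals and -0.18 and called lower with median centring. UCP2 was 1.29-fold lower (-0.37, adjusted p = 0.015), but its ratio was -1.0 on replicate 2 with grade 3 in Cy5 and between -0.25 and -0.07 on the other 3 arrays (-0.16 without that replicate, and -0.58 without replicate 1 with grade 3 in Cy5, both called; 0.30 with spike-in scaling), and UCP3 had 0.0025 (adjusted p = 0.97). The UCP2 call was lost with median centring (-0.19, adjusted p = 0.155), without a dye term (0.0917), with the deposited value table (0.0558) and with marked local backgrounds as measured (0.107). Of 7 apolipoprotein and cholesterol transport genes 2 were called, both lower, while 70.2% of all named genes were called and 46.1% were called lower. APOC1, an apolipoprotein that macrophages also make, was lower by 1.46-fold (-0.55, limma adjusted p = 3.17e-05, but -0.32 with median centring and 0.12 with spike-in scaling). The APOC1 difference lay mostly on the arrays with grade 3 in Cy5 (means of -0.89 and -0.21 in the 2 orientations). APOH was lower by 1.19-fold (-0.25, limma adjusted p = 0.00119, but -0.64 with processed signals, -0.62 from the deposited value table and 0.42 with spike-in scaling).

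**Figure D4:**
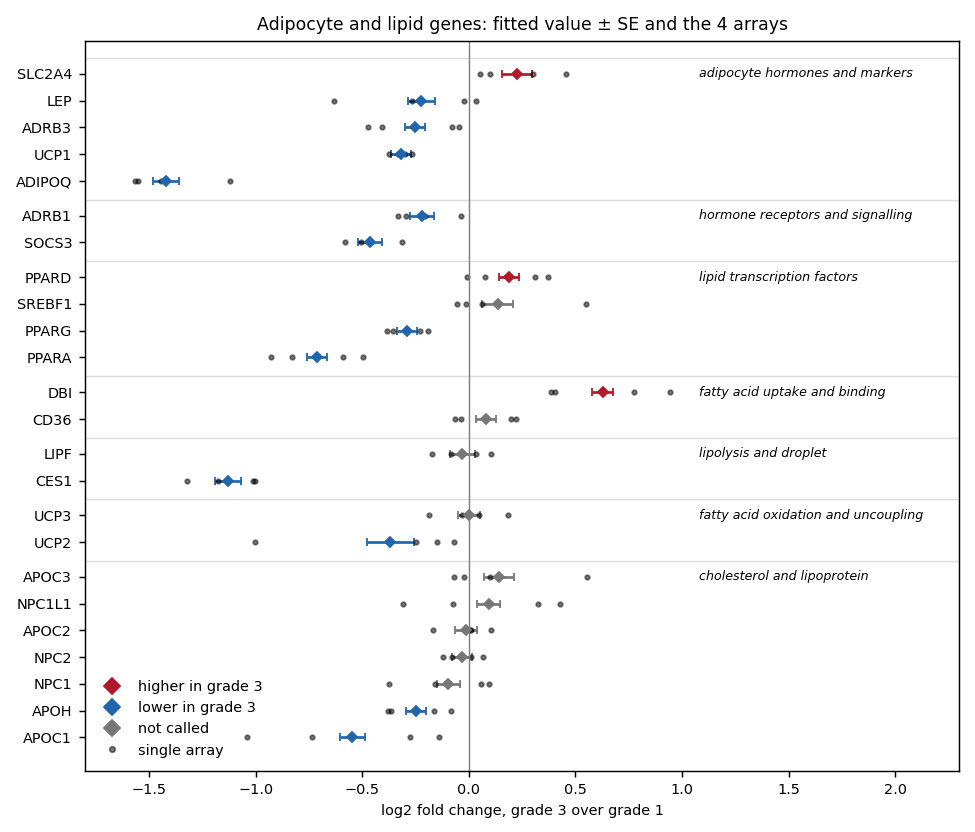
Log2 fold change of grade 3 over grade 1 (horizontal axis) of the 25 measured adipocyte and lipid genes, 1 of them not shown, grouped by role, with diamonds for the fitted value ± SE of the brightest probe (red called higher, blue called lower, grey not called) and small points for the 4 arrays. ADIPOQ at -1.42 and CES1 at -1.13 are the lowest, and DBI at 0.63 is the highest.

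Markers of other cell types moved between the same RNAs, and their part in the results on the 4 genes was not tested. For scale, 46.1% of the 925 named genes were called lower and 24.1% higher, so the small counts of calls below say little by themselves. All 4 measured macrophage and monocyte markers of 15 listed were lower in grade 3, with a median log2 fold change of -1.09 and FCGR1A lowest at 2.59-fold lower. Their summed linear level was 26760 to 30360 units in grade 3 and 53950 to 63050 in grade 1. Such a sum adds different probes and leans on the brightest. Most of this one was the chemokine gene CCL2, with mean levels of 14.13 in grade 3 and 15.17 in grade 1. All 4 measured endothelial markers of 12 were lower (median -0.57, summed level 36180 to 44030 units in grade 3 and 46490 to 55200 in grade 1). Nearly all of the endothelial sum was VWF, which was 1.23-fold lower, with mean levels of 15.16 in grade 3 and 15.46 in grade 1. Of 5 measured fibroblast and matrix markers of 11 listed, 4 were lower (median -0.54, summed level 308000 to 400200 units in grade 3 and 480400 to 550500 in grade 1). COL1A2, whose value is the median of that list, had means of 0.13 with grade 3 in Cy5 and -1.22 with grade 1 in Cy5. Of 6 measured platelet and red cell markers of 11, 4 were lower and the others were not called (median -0.16, summed level 148100 to 254900 units in grade 3 and 183400 to 313200 in grade 1). Nearly all of that sum was RHAG, with mean levels of 17.54 in grade 3 and 17.85 in grade 1. RHAG was among those called lower, yet its ratios were 0.44 and 0.43 with grade 3 in Cy5 and -1.08 and -1.02 with grade 1 in Cy5. Skeletal muscle markers (4 higher and 1 lower of 5 measured, median 1.78; 11830 to 12560 units in grade 3 and 1708 to 2151 in grade 1) and both measured milk genes (median 2.66; 358000 to 468300 units in grade 3 and 37670 to 94320 in grade 1) were higher. Of 5 measured epithelial markers of 12, 2 were higher, 1 lower and 2 not called (median 0.11; 9142 to 11550 units in grade 3 and 8295 to 9375 in grade 1). With spike-in scaling every fold change rises by 0.67, which puts the medians of the endothelial, fibroblast and platelet lists above 0.

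The members differed in how far the processing moved them. The median log2 fold change of all probes was 0.0045 as reported, 0.08 with median centring and 0.67 with spike-in scaling. ADIPOQ lay below 0 and far below the median under all of them, LEP and PPARG lay below the median under all of them, and CD36 lay above it except with marked local backgrounds as measured (-0.01 against a median of -0.01).

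**Figure D5:**
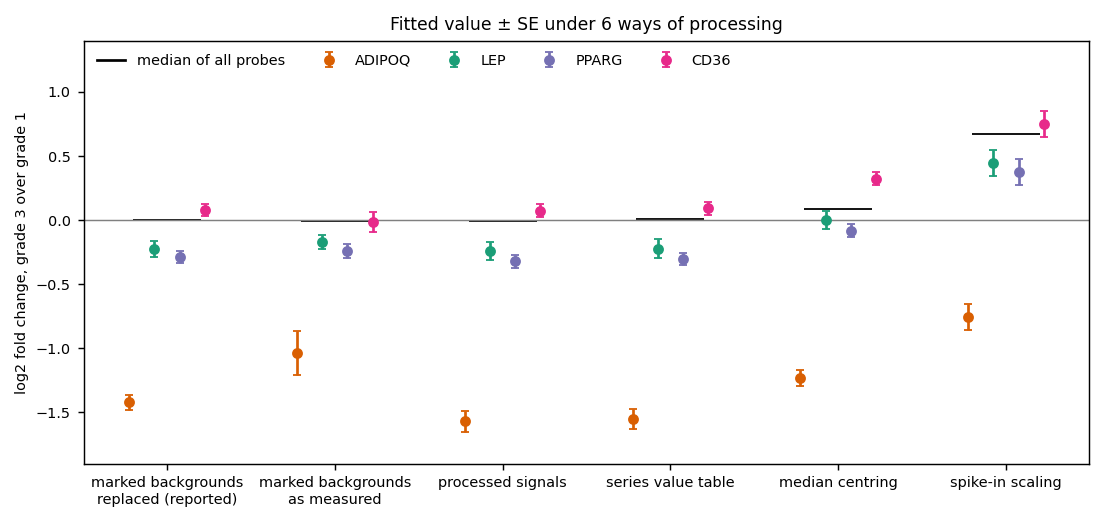
Log2 fold change ± SE of grade 3 over grade 1 (vertical axis) of ADIPOQ, LEP, PPARG and CD36 by their brightest probe under 6 ways of processing the same arrays (horizontal axis), with a black bar at the median of all tested probes. ADIPOQ runs from -1.57 to -0.75 and is called throughout, LEP runs from -0.24 to 0.44, PPARG from -0.32 to 0.38 and CD36 from -0.01 to 0.75, so the direction of LEP and PPARG turns with spike-in scaling, while CD36 crosses 0 with marked local backgrounds as measured.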

How the data were processed

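Per the submitters' processing notes, Agilent Feature Extraction 10.7.3.1 was used on the 4 arrays. Per the file headers, median signals and local backgrounds are linear intensity values, and processed signals are intensity values already background-subtracted, detrended and dye-normalized by that software. LogRatio is log10 of Cy5 over Cy3 from processed signals, per the file headers. The authors' deposited value table repeats it in log10 units as grade 3 over grade 1 (largest difference 4.99e-06; every column median 0). Dyes named in the labels set each direction.

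R 4.3.3 and limma 3.58.1 were used. Median signals were corrected by normexp (offset 50) after local backgrounds bearing an outlier mark, 151 to 2352 in a channel of an array and up to 309565 units, had been set to the channel's median. That replacement had been adopted once its effect on the counts of calls was known, and values without it are given. Loess within arrays gave control spots weight 0. From 11 to 39 spots an array were dropped for outlier marks, replicate spots were averaged, and none was saturated. A probe entered the test if all arrays showed it well above background in either grade (35412 of 43603). The two-sided limma fit held grade and dye (2 residual, 7.5 prior degrees of freedom) and its code was run on simulated data. That simulation drew independent noise from the fit's own variances, so it cannot show whether the arrays are independent replicates. Levels are single-channel log2 intensities after Aquantile, computed here from the deposited signals. Channel medians were 215 to 402 units over backgrounds of 28 to 41, with 80.6% to 84.5% of probes well above background; precision is limited by having 4 arrays.

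Of 43603 probes 1648 got a gene name by matching unversioned RefSeq accessions to the table for assembly UU_Cfam_GSD_1.0. The array design is built on canFam2, so no coordinates are given, and no sequence was used. The brightest probe stood for its gene. Named genes are all probes of the members, every measured gene of a lipid list with at most 5 (otherwise the 3 highest and 3 lowest called), the 3 nearest genes and examples from marker lists. The members, lists and settings were chosen with earlier results of these data known. The test between probes of a gene was added after seeing their values. The labels share replicate numbers between orientations, but same-numbered arrays did not deviate together (correlation -0.09 over 35377 probes), so no pairing was used. The values of 1 measured list gene are not reported here, though it is in the counts.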

Additional observations from a re-analysis of the deposited data

Results flagged for a closer look

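In grade 3, the level of the brighter ADIPOQ probe was 9.23 on replicate 2 with grade 1 in Cy5, against 8.97 to 9.0 on the other 3 arrays. Its gap to the nearest value was 0.882 of the whole range, above the critical value of 0.829 for 4 samples. The dimmer ADIPOQ probe was also highest there, at 8.79 against 8.56 to 8.66, without passing that limit. Without this array ADIPOQ had a log2 fold change of -1.5 in place of -1.42. In all 21 sets of 4 values were looked at (the ratio and both levels of 7 probes), and chance picks out about 1 set in 20.

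The brighter LEP probe differed between the dye orientations, with mean log2 ratios of -0.45 and 0.005. Its dye term was -0.23 (limma adjusted p = 0.0337, n = 4 arrays), while that of the dimmer LEP probe was 0.05 (adjusted p = 0.512). The dye call of the brighter probe was lost under 8 of 12 alternatives (highest adjusted p = 0.381), among them leaving out any array but replicate 1 with grade 3 in Cy5.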

How the results depend on the processing

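ADIPOQ kept its direction and its call under all 14 alternatives, with log2 fold changes from -1.57 to -0.75, and from -1.5 to -1.34 on leaving out each array in turn. LEP was called lower under 9 of 14 and PPARG under 12, both were called higher with spike-in scaling, and CD36 was called higher under 2. Under spike-in scaling the SE was 0.10 for every gene shown, so calls there do not measure a gene's own spread. Causes were not tested.

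With marked local backgrounds as measured, 2328 probes were called higher and 4418 lower (11030 and 10802 as reported), of the lipid lists 1 gene was higher and 5 lower (3 and 12 as reported), LEP had a log2 fold change of -0.17 with a dye term of -0.17, CD36 had -0.0126 and LIPF 0.012; UCP1, UCP2, PPARA, PPARD, ADRB1, SOCS3, SLC2A4, APOH, both LEP probes and the dimmer PPARG probe were not called. With median centring LEP had 3.6e-05 with a dye term of -0.14, PPARG -0.0827, CD36 0.32 and UCP3 -0.0615, and 8 list genes were higher; of all calls 63.9% were higher in place of 50.5%. With spike-in scaling, where the SE was the same for every gene shown, 97.2% were higher (32260 higher and 917 lower, with 21 and 2 list genes). There LEP had 0.44 (dye term -0.17; dimmer probe 0.24), PPARG 0.38 (dimmer probe 0.41), CD36 0.75, UCP1 0.35, UCP2 0.30, ADRB3 0.42, ADRB1 0.45, SOCS3 0.20, LIPF 0.64, APOC1 0.12 and APOH 0.42. Without a dye term the LEP call was lost at the same value of -0.22 (adjusted p = 0.157), and 1 list gene was higher. The LEP dye term had -0.24 with processed signals and -0.27 with the deposited value table, where UCP3 had -0.12 and -0.10; its call was lost under 8 of 12 alternatives, these and the 3 settings above among them, and without any array but replicate 1 with grade 3 in Cy5. Averaging the probes of each gene gave 5 list genes higher and -0.0481 for UCP3.

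Leaving out each array in turn gave LEP -0.31 to -0.13, its dye term -0.32 to -0.14, PPARG -0.30 to -0.28, CD36 0.07 to 0.09, 9094 to 10971 probes higher and 9005 to 10798 lower, and 2 to 5 list genes higher and 11 to 13 lower. The 5 came without replicate 2 with grade 3 in Cy5, which also ended the LEP call and gave LIPF 0.0388; UCP3 ranged from -0.0372 (without replicate 1 with grade 3 in Cy5) to 0.0422. With the replicate number as a replicate block 10922 probes were higher and 10640 lower, and no member's change between grades gained or lost its call (LEP adjusted p = 0.00352). Signal over background limits the dimmer LEP and PPARG probes, and also list genes with low signals. Among these were APOH, SLC2A4 and LIPF, with mean levels between 6.42 and 6.71, and SOCS3, with 7.15 in grade 3 and 7.62 in grade 1.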
